A study of Drosophila melanogaster with 4 samples.

Results

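The tandemly repeated histone gene cluster of Drosophila melanogaster lies near the base of chromosome arm 2L. The peaks described here are all those of the deposited Homothorax list whose midpoint falls between 21.4 and 21.56 Mb on 2L, on FlyBase release 5. The list places 52 of its 6207 peaks there, or 0.838% of them. The members were chosen by position alone, but the window was picked after its dense peak cover had been seen in the same list, so the number, widths, scores and cover of these peaks are given as a description, with no test.

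The study mapped Homothorax by chromatin immunoprecipitation followed by sequencing (ChIP-seq), in which DNA cross-linked to a protein is recovered with an antibody, sequenced and compared with input DNA. Its 4 libraries are 2 of Homothorax ChIP DNA and 2 of input DNA, all from whole embryos of strain Y cn bw sp, of unknown sex, with the stage given as 0 to 8 h. The extract protocol names an 8 to 16 h laying window, which differs from that stage label. Every library carries the same genotype, with y[1] and oc[R3.2] given first, then Gr22b[1], Gr22d[1] and cn[1] together with CG33964[R4.2], bw[1] and sp[1], and last LysC[1] and lab[R4.2] beside MstProx[1], GstD5[1] and Rh6[1]. No agent or transgene is named for either group. The serum was a crude guinea pig polyclonal against full-length His-tagged protein. The labels do not say whether same-group libraries came from separate collections. The peak list gives 1 value per peak for the series, so ChIP and input libraries were not compared here, read depth is unknown, and no replicate error exists for any value below.

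Homothorax belongs to the TALE class of homeodomain proteins. It partners Extradenticle, brings it into the nucleus and acts with it beside the Hox proteins. The histone cluster encodes the replication-dependent histones. His2A, His2B, His3 and His4 are the core histones around which DNA is wound in the nucleosome, and His1 is the linker histone that binds where DNA enters and leaves it. These genes are transcribed in S phase, from a nuclear structure called the histone locus body, and early embryos draw on them heavily because their nuclei divide fast. The RefSeq gene table, which describes release 6, names 23 copies of His1, 23 of His2B, 20 of His2A, 22 of His4 and 23 of His3, 111 genes in all. In their order along the arm, 19 sets of neighbours run His1, His2B, His2A, His4, His3, and 3 others, the sets at places 1, 3 and 5, carry a histone pseudogene (His-Psi) where His2A stands. The replication-independent genes His2Av, His3.3A, His3.3B and His4r and the embryonic linker histone gene BigH1 are listed once each and do not belong to the cluster. Because the builds differ, no peak was placed on a gene, exon, intron or UTR, and gene names serve here only to say what the cluster holds.

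The peaks of the histone region were wide and of moderate score. What the authors' score measures is not stated by the file or the labels. It ran from 8.14 to 39.21 with a median of 24.74, against a median of 16.93 in the whole list. Peak width had a median of 949 bp and an interquartile range of 604 to 3062 bp, against a median of 483 bp in the whole list. More than 2 kb was spanned by 21 of the 52 peaks, where 6.44% of all listed peaks are that wide. No peak of the region reached a score of 40, a level held by 17.5% of the list. The peaks together covered 91.5 kb, which is 57.2% of the 160 kb window. Several peaks had the same score to both decimals: the 52 peaks held 35 distinct values, and 32.15 alone occurred 4 times. How often scores are shared in the rest of the list was not counted, so shared scores are not given as a trait of the region.

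Peak cover fell into 3 groups along the region. The first peak lay at 21403867 to 21404547, was 681 bp wide and scored 32.15. It was followed by a peak of 556 bp that scored 25.63 and by one at 21405739 to 21406020, 282 bp wide, that scored 18.48. After 10.9 kb without a peak came an array of 11 peaks from 21416903 to 21440769, 23.9 kb long and 80.3% covered, which opened with a peak of 2481 bp that scored 24.30. A second stretch without peaks, 10.3 kb long, separated it from the longer array of 38 peaks from 21451050 to 21543478, 92.4 kb long and 76.7% covered. The last peak of the region was 586 bp wide, ended at 21543478 and scored 24.74. Whether reads can be placed in the stretches without peaks was not examined.

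The edges of the region were far from other peaks. The nearest peak before it, at 21344704 to 21345030, was 327 bp wide, scored 8.53 and lay 58.8 kb away. The nearest peak after it, at 21573470 to 21573709, was 240 bp wide, scored 6.90 and lay 29.99 kb away. Moving either limit of the window by up to 3 kb would leave the same 52 peaks. Of the 51 distances between neighbouring peaks of the region, 20 were under 300 bp, 13 from 300 to under 800 bp and 16 from 800 to 1515 bp. None lay from there up to 5 kb, and the other 2 were the stretches named above.

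**Figure D1:**
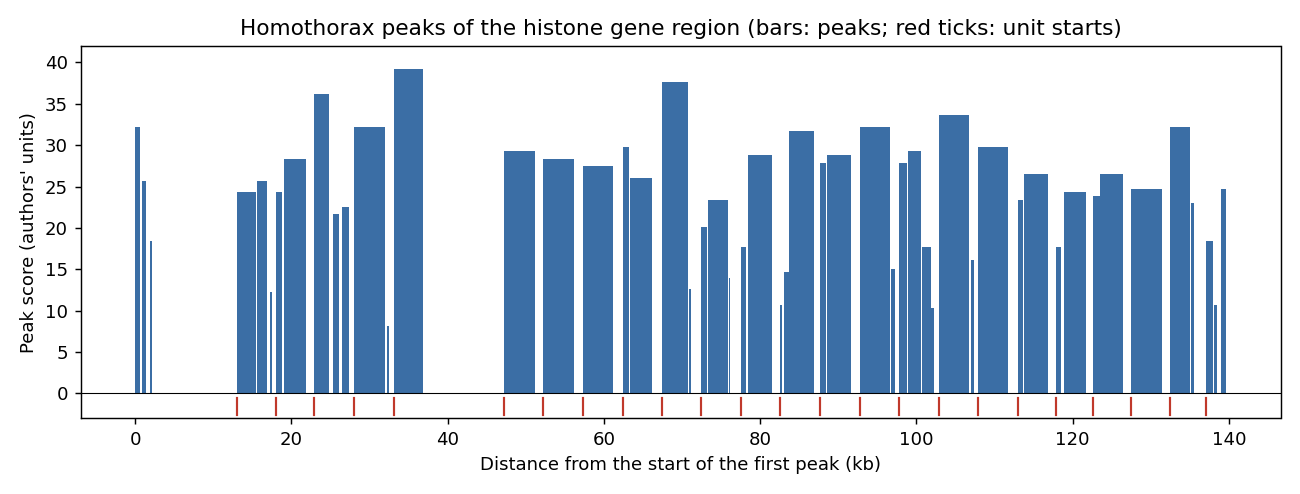
Peaks of the histone region drawn as bars from start to end, with distance from the start of the first peak on the x axis (kb) and the authors' score on the y axis. Red ticks mark the 24 unit starts, which recur about every 5.0 kb in both arrays, and no bar reaches a score of 40.

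Peak cover repeated about every 5 kb. The cover of the window was written as 1 inside and 0 outside a peak at every base and correlated with itself after a shift, and between shifts (lags) of 3000 and 8000 bp the correlation was highest at 5030 bp, where it reached 0.603. It had fallen to 0.194 at a lag of 3200 bp, and it peaked again at 10060 bp with 0.343 and at 15040 bp with 0.234. Inside the longer array alone the highest value was 0.703 at 5020 bp, followed by 0.611 at 10070 bp and 0.520 at 15100 bp. The shorter array gave 0.394 at 5070 bp, 0.288 at 9960 bp and 0.716 at 15030 bp. That array is only 23.9 kb long, so a lag of 15030 bp leaves little of it to compare. Its value there was above that at 5070 bp. Neighbouring bases share their peaks and copies of the repeat share their sequence, so these correlations carry no p-value.

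Another 10 ways of reading the interval gave 4940 to 5070 bp. The lowest came from the vector strength of the centres, a measure of how closely peaks keep to a common phase. It was 0.209 in the window and 0.261 in the longer array alone. The 2 other runs of peaks on 2L gave 0.252 and 0.278, so that measure did not set the region apart. Peak starts gave 5050 bp, peak ends 5000 bp, the higher-scoring members 5020 bp and the wider members 5020 bp. Successive peak centres did not show the interval, because most repeats held more than 1 peak: the median distance from centre to centre was 2069 bp, and 2 of 51 such distances lay within 250 bp of 5030 bp or a multiple of it. Across all pairs rather than successive peaks, 34 of the 52 peaks had another peak start within 250 bp of 5030 bp before or after their own. Among the 18 without such a partner were the first 3 peaks and the last 4 peaks of the region. The same count was not made for other peaks. Where peaks are dense some have such a partner without any repeat, so the 34 alone do not set the region apart.

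**Figure D2:**
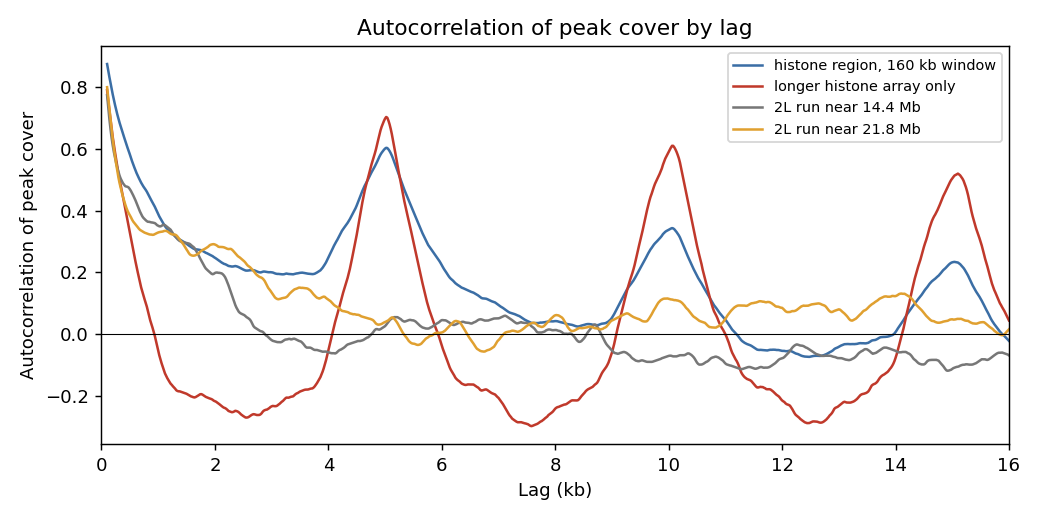
Autocorrelation of peak cover (y axis) against lag (kb, x axis) for the histone window, the longer histone array and 2 other runs of peaks on 2L. Both histone curves peak close to 5, 10 and 15 kb, at 0.603 and 0.703 for the first, while the other runs are at 0.0326 and 0.0418 at a lag of 5030 bp. The window includes margins without peaks, whereas the longer array and the other runs are read from their first to their last peak.

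Repeat units were then followed from peak to peak. Starting with the first peak of each array, the next unit start was taken as the peak start closest to 5030 bp further on, if within 500 bp. This gave 5 units in the shorter array and 19 in the longer one, and placed 49 of the 52 peaks in units. The 3 peaks before the shorter array formed no unit. The 22 distances from one unit start to the next averaged 5000 ± 128 bp (SD over distances), with a median of 5020 bp, a minimum of 4613 bp and a maximum of 5178 bp. Since each step was accepted only within 500 bp of 5030 bp, the range is limited by construction.

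Distances between unit starts, which are peak edges, were not even along the longer array. Its first 13 distances ran from 4971 to 5178 bp and averaged 5058 ± 56.9 bp (SD), with 12 of 13 above 5000 bp. Its last 5 distances ran from 4613 to 4952 bp and averaged 4829 ± 141 bp (SD), so these last distances and the first 13 did not overlap. That division was made after the distances were seen, at the point where they separate, so the lack of overlap lends it no support. In the shorter array the 4 distances were 5009, 4890, 5069 and 5139 bp, on both sides of 5000 bp.

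**Figure D3:**
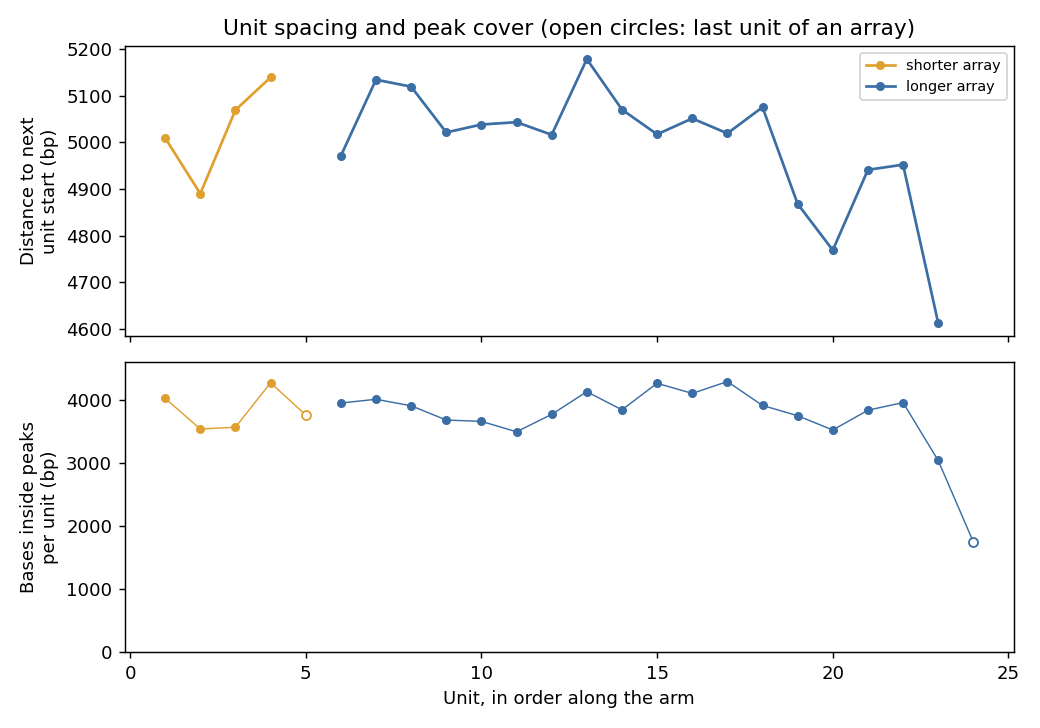
Distance from each unit start to the next (upper panel, bp, axis not from 0) and bases inside peaks per unit (lower panel, bp) for the 24 units in their order along the arm, the shorter array in orange and the longer in blue. The last 5 distances of the longer array lie below 5000 bp, and complete units hold 3039 to 4290 bp inside peaks.

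The repeat units had a similar outline, a covered body of nearly 4 kb and a mostly uncovered remainder of about 1 kb. Over the 22 complete units, those followed by another, 3841 ± 302 bp (SD over units) lay inside peaks, or 76.8 ± 4.98% of the unit. When units were aligned at their starts, all 22 were covered from 1200 to 1800 bp, and in the bin from 3700 bp 19 of 22 were still covered over most of the bin. Cover then dropped, to 16 of 22 units in the bin from 3800 bp, 9 in the bin from 3900 bp and 3 in the bin from 4000 bp. In the bin from 4500 bp none of the 22 units was covered over most of its length, and mean cover was 0.273%. A small rise stood in between, with 7 of 22 units covered from 4200 to 4400 bp. These were 3 of 4 units in the shorter array and 4 of 18 in the longer one. Full cover at the unit start itself follows from the alignment, and in the last bins units shorter than 5000 bp already show the next unit.

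**Figure D4:**
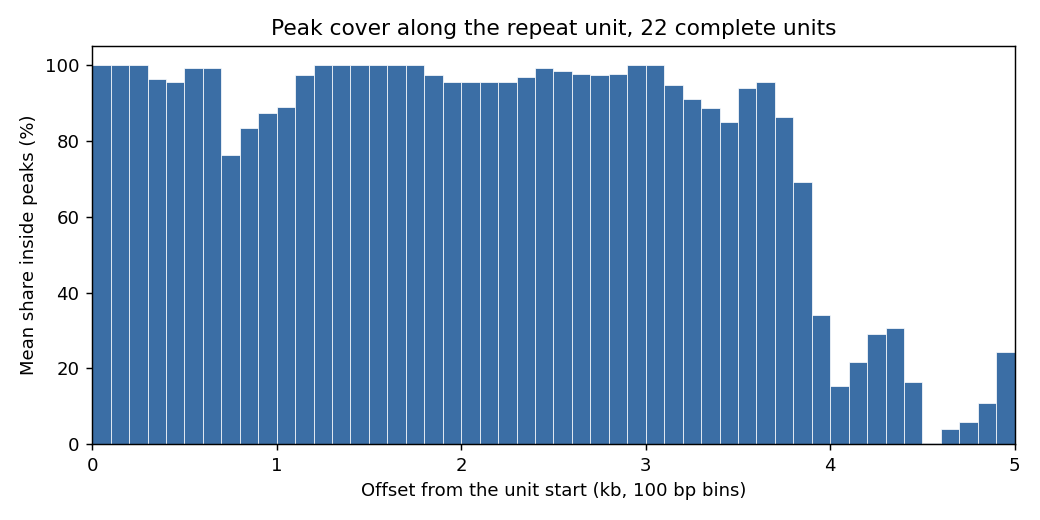
Mean share of each 100 bp bin inside peaks (y axis, %) against offset from the unit start (x axis, kb), averaged over the 22 complete units of both arrays. Cover dips to 76.3% in the bin from 0.7 kb, stays above 85% from 0.9 to 3.4 kb, and falls to 0.273% in the bin from 4.5 kb.

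Units differed in how the body was cut into peaks. Of the 22 complete units, 5 held 1 peak, 12 held 2, 4 held 3 and 1 held 4. In 9 units the first peak was 3377 to 4011 bp wide and spanned most of the body. In 10 units the first peak was only 319 to 989 bp wide, and in 9 of these a peak of 2572 to 3200 bp followed, starting 803 to 1176 bp and ending 3374 to 4375 bp into the unit. In unit 13 a peak of 610 bp stood between the short first peak and the wide piece. The median end of the wide pieces, 3863 bp, lay inside the 3376 to 4010 bp at which the undivided bodies ended. The division between pieces appears as the dip in mean cover to 76.3% in the bin from 700 bp. In the 3 remaining units the first peak was 1841 to 2593 bp wide, and these were units 1 and 3 of the shorter array and the last complete unit of the longer one.

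Median width and median score fell with the offset from the unit start, although peaks in the first parts varied widely. The 5030 bp from each unit start were divided into 5 equal parts. The 31 peaks that began in part 1 had a median width of 2593 bp and a median score of 27.44. They ranged from 319 to 4011 bp and from 10.65 to 39.21, since short first pieces and wide bodies both begin there. The 6 that began in part 2 had a median width of 2208 bp (312 to 3200 bp) and a median score of 26.55 (10.65 to 31.67). Wide pieces that follow a short first peak begin on both sides of the limit between parts 1 and 2. The 4 in part 3 had a median width of 999 bp and a median score of 22.37. The 4 in part 4 had a median width of 375 bp and a median score of 14.53. The 4 in part 5, the mostly uncovered end of the unit, were 231 to 368 bp wide and scored 8.14 to 16.17. Peaks that start late in a unit have less room before the next body, so width and start position are not independent here. As a share of the variance of log2 width, 5 classes of position accounted for 0.130 when taken as the phase of the peak starts at a fixed 5030 bp period. Median widths in those 5 phase classes were 681, 888, 1415, 2790.5 and 446 bp, a different order from that by offset. The share was 0.564 with the phase of the centres, and 0.421 with the offset from the unit start, a measure added after the data were seen.

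The highest score of each of the 22 complete units ran from 23.43 to 37.65, with a mean of 29.4 ± 3.65 (SD over units). In the incomplete last units it was 39.21 in the shorter array, the top score of the region, and 24.74 in the longer array. Copies of the repeat share their sequence, so units are not replicates of a measurement. How reads that match several copies were assigned is not stated by the labels, and its part in the likeness of the units was not tested.

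The highest-scoring peaks of the region were mostly unit bodies. The top score, 39.21, belonged to the peak at 21437010 to 21440769, 3760 bp wide, which closes the shorter array. It was followed by the peak at 21471295 to 21474671, with 3377 bp and a score of 37.65, and by the peak at 21426802 to 21428642, with 1841 bp and a score of 36.13. Next came the peak at 21506708 to 21510629, with 3922 bp and a score of 33.63. The narrow first peak of the region came next with 32.15, level with 3 other peaks.

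The widest peaks were nearly equal in width. They spanned 4011 bp at 21431871 to 21435881 (score 32.15), 4009 bp at 21456021 to 21460029 (score 28.36) and 3957 bp at 21531380 to 21535336 (score 24.74). The peak that opens the longer array, at 21451050 to 21454999, spanned 3950 bp and scored 29.29. Next was the 3922 bp peak named above. That no peak spanned more than 1 unit follows from taking unit starts at peak starts.

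Wide peaks of the histone region had low scores for their width. The 21 peaks over 2 kb scored 23.43 to 39.21 with a median of 28.82, whereas the 379 other peaks of that width on the 6 chromosome arms had a median of 85.10, an interquartile range of 57.68 to 130.65 and a minimum of 19.27. Of those 379 peaks, 29 scored no higher than 39.21. Counted the other way, 52 peaks on the arms were over 2 kb wide with a score under 40, and 21 of them (40.4%) lay in the histone region, which holds 0.882% of the peaks on the arms. Above 3.3 kb, the 10 peaks of the region scored 24.74 to 39.21 and the 111 others 36.76 to 379.52, with 2 of the others at or under 39.21.

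Peaks of the region under 500 bp had a median score close to that of other peaks of their width. The 11 peaks under 500 bp had a median score of 12.61, against 11.65 for 3029 others. The 20 peaks of 500 to 2000 bp had a median of 24.09, against 26.53 for 2434 others. High scores were missing among these 20, with an upper quartile of 27.90 and a maximum of 36.13. The upper quartile of the 2434 others was 43.5, above that maximum. Score rose with width in the region, with a Spearman rho of 0.775 over 52 peaks against 0.824 over the 5842 others, a description only, since the peaks are neither independent nor replicates. A straight line of log2 score on log2 width was drawn through the other peaks. Against it the 52 peaks lay at a median of -0.61 on the log2 scale, with 41 of 52 below the line. The 5842 others had a median of -0.02, close to the line. The 11 narrow ones lay at a median of 0.15. The 20 of 500 to 2000 bp lay between -1.12 and 0.42, most of them below the line. The 21 wide ones lay at a median of -1.67, all of them between -2.12 and -1.22. Of the other peaks over 2 kb, 0.528% lay below -1.67, and their median was 0.00. These log2 differences depend on the unknown scale of the score.

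**Figure D5:**
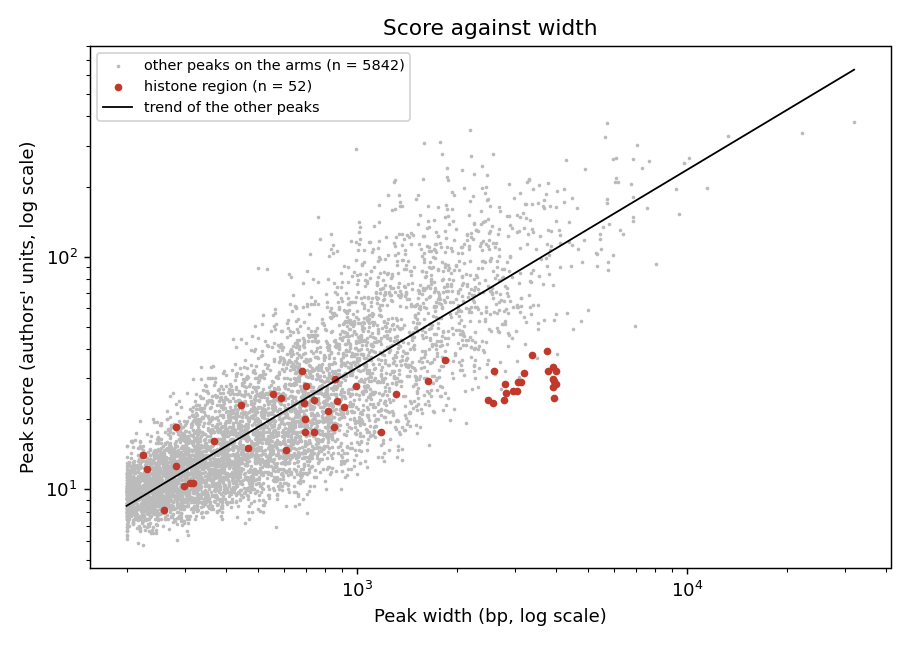
Authors' score (y axis, log scale) against peak width (x axis, bp, log scale) for the 52 peaks of the histone region (red) and the 5842 other peaks on the arms (grey), with the straight line through the other peaks. Below 500 bp the red points lie among the grey ones, and above 2 kb they form a group under the line between 23.43 and 39.21.

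Other densely covered runs of peaks on 2L were set beside the longer histone array. The run at 14416154 to 14588444, with 44 peaks and 88.3% cover, had peaks of similar width, at a median of 1038 bp against 1085 bp in the histone array, but its scores reached 379.52. The run at 21788757 to 21899724, with 56 peaks and 61.6% cover, had a median width of 582 bp and scores up to 375.76. The highest autocorrelation between lags of 3000 and 8000 bp was 0.0597 in the first, at 7120 bp, and 0.151 in the second, at 3490 bp, against 0.703 at 5020 bp in the histone array. All of these were read from the first to the last peak of the run, without margins.

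Across the genome the window was not alone in every measure. Among 71 other stretches of 160 kb with at least 20 peaks, 1 had a higher covered share than the 57.2% of the histone window, at 79.9%, and the median was 15.1%. At a lag of 5030 bp the highest autocorrelation among them was 0.566 and the median 0.171, all below the 0.603 of the histone window. That lag was chosen as the best of the histone window itself, so reading the others there favours the window. At whichever lag between 3000 and 8000 bp suited each stretch best, 2 of them reached 0.603 or more, the higher with 0.647 at 3000 bp, the shortest lag read. The rise from the lowest value at shorter lags was 0.410 in the histone window, with a median of 0.0749 elsewhere, and 1 stretch rose further. The one that did, 2L 5280001 to 5440000, held 26 peaks that covered 13.2% of it and rose by 0.461 to 0.454 at a lag of 6690 bp, with 0.401 and 0.328 near the multiples of that lag by 2 and 3. Read at multiples of each stretch's own best lag, 5 of the 71 were as high as the 0.343 of the histone window at the multiple by 2, and 11 as high as its 0.234 at the multiple by 3, or 9 and 14 with the stretches shifted by 80 kb. The top score of the histone window, 39.21, was below the top score of all 71 stretches, of which the lowest was 56.68 and the median 142.69. With the stretches shifted by 80 kb, 1 of 71 had a lower top score, 38.22, 1 had a higher value at 5030 bp, 0.633, and none rose further. That stretch, 2L 14480001 to 14640000, holds part of the run that ends at 14588444 together with the sequence beyond its end. Its values at 5030 bp and at its best lag, 0.642 at 7110 bp, were thus above the histone window, while the run read without margins gave at most 0.0597. Its rise over shorter lags was 0.0335.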

How the data were processed

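One peak table of the series was used. Per the file headers, it was written by MACS on FlyBase release 5, and the submitters' processing notes name build BDGP5, CASAVA 1.7.0.2 and 1.7.0.3, BWA and MACS2. The authors deposited a start, an end and a score per peak; pooling of replicates, calling threshold, excluded regions and treatment of reads matching several places are stated in none of the sources used. Per the labels' protocols, cross-linking took 15 min in 1.8% formaldehyde.

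Widths are end minus start plus 1 bp. Lags were read in 10 bp steps. The computations used Python 3.11.15, numpy 2.4.6, pandas 2.3.3, scipy 1.17.1 and matplotlib 3.10.9, and period finding was tested on simulated arrays. Named singly are the 5 highest-scoring and 5 widest peaks, the first and last, the outer neighbours, and those beside gaps over 5 kb; the 2 other runs and any other peak were picked after their values were seen. The members and measures were chosen with earlier results of these data known. No test was run, since the table holds no value per library. The planned search of histone promoters was not run, as no sequence was used here.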

Additional observations from a re-analysis of the deposited data

How the results depend on the processing

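The repeat period moved by at most 90 bp in 10 alternatives, from 4940 bp by vector strength of the centres to 5070 bp in the shorter array. That vector strength was 0.209 in the window and 0.261 in the longer array, against 0.252 and 0.278 in the other runs. The median distance between unit starts, 5020 bp, is close to 5030 bp by construction. Merging peaks closer than 1 kb left 16 peaks in place of 52, since 36 of the 51 gaps are shorter than that, while the list's median score as a minimum left 42 and the longest run held 38. The share of log2 width variance between 5 position classes was 0.130 by the phase of the starts, 0.5635 by the phase of the centres and 0.4212 by offset from the unit start; the cause was not tested. The number of other stretches that matched the histone window was 2 by the height of the autocorrelation in both tilings and 1 by its rise. Successive centre distances near the period stayed at 3.92% within 100 bp and were 5.88% within 500 bp. The median score for width was -0.57 with the trend of other 2L peaks. The unit spacing, the rise, the offset classes and the periods of each array were chosen after the data were seen. The motif alternatives were not run, as no sequence was used here. No paired analysis was possible because peaks have 1 value for the whole series, and no replicate could be left out. Depth is unknown, so no limit from it can be set.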
